A study of Mus musculus with 5 samples.

Results

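Serpins are a family of proteins that share a fold with an exposed reactive centre loop. Their genes were followed here as all probes whose platform gene symbol begins with Serpin, a clade letter from a to i and a number. The rule found 49 probes of 45 genes, out of 21020 named probes of 16637 genes on the array. They fell into 9 clades, with 15 genes of clade A, 21 of clade B, 2 each of clades F and I, and 1 each of clades C, D, E, G and H. The brightest probe, by its mean over the 5 arrays, stood for each gene.

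Liver RNA came from 5 groups of mice on the C57BL/6 background, each kept on its diet for 16 weeks and read on 1 array in 1 colour (Cy5). The wild-type (WT) groups ate chow, a high-fat diet, or that diet mixed with NDGA, 2.5 g in each kg of food. The ob/ob groups, which lack leptin, ate chow, plain or with NDGA at that dose. NDGA (nordihydroguaiaretic acid) is a lignan of the creosote bush that inhibits lipoxygenases. The series' title places the study in hepatic lipid metabolism and PPAR-alpha, the nuclear receptor of fatty acid oxidation. The design text gives 3 animals per group; with 1 array each, whether these were pooled is not stated in the sources used here. The age and sex of the mice are likewise not stated there. There are no replicates, so no test, error or p-value exists for any value, and each difference is between a pair of arrays.

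Most serpins inhibit serine proteases as suicide substrates: the protease cleaves the reactive centre loop, which then inserts into the protein and traps the enzyme. The liver secretes many of them into plasma, where they restrain coagulation, fibrinolysis, complement and neutrophil elastase. Several members inhibit nothing and instead carry hormones, chaperone collagen or act as signals. Clade B serpins lack a classical signal peptide and act largely inside cells.

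Values are background-subtracted probe intensities in arbitrary units, brought to a common distribution over the 5 arrays by quantile normalization. Differences are on the scale log2(value + 50), which understates changes of dim probes, and a log2 difference of 1 is 2-fold. The deposited medians ran from 38.1 on ob/ob chow to 71.0 on ob/ob chow with NDGA, so before normalization the latter array had the highest median. A gene passed the filter on dim genes when its mean over the 5 arrays reached the median over all genes, an intensity of 90.5; 8319 genes passed. Across 922 genes with a pair of bright probes, the SD per probe was 0.28 to 0.47 log2 units, depending on the comparison. That is a spread between probes on the same arrays, not between mice. All 6 hepatocyte markers on the array passed the filter, and their levels summed to 205210 to 221761. Alb, the brightest part of that sum, was saturated on 4 arrays, and Cps1, of the urea cycle, ran from 1812 on ob/ob chow to 6000 with NDGA, so the sum does not show equal hepatocyte content.

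Of the 45 serpin genes, 21 passed the filter: 11 of 15 in clade A, 4 of 21 in clade B, and the members of clades C, D, F, G and H. The other 24 lay below it. Probes of 3 passing serpins reached the scanner limit of about 65000 on 1 or more arrays, which left 18 serpins measured on all 5. Of these 18, the highest level was on the WT high-fat array for 7 and on the ob/ob array with NDGA for 3. The lowest was on the ob/ob array with NDGA for 6, a place that rests on the scaling. Without normalization all 18 read higher there than on ob/ob chow, so none was lowest there. The highest places rest on the scaling too. As deposited, Serpina3g, Serpina3n, Serpinb2 and Serpinf2 were highest on the ob/ob array with NDGA instead of the WT high-fat array. Serpina12, Serpina6 and Serpinh1 stayed highest on the WT high-fat array. No share over all genes is set beside these counts, so they single out nothing about the family. The levels of different probes cannot be ranked against each other, so each serpin is described across arrays.

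**Figure D1:**
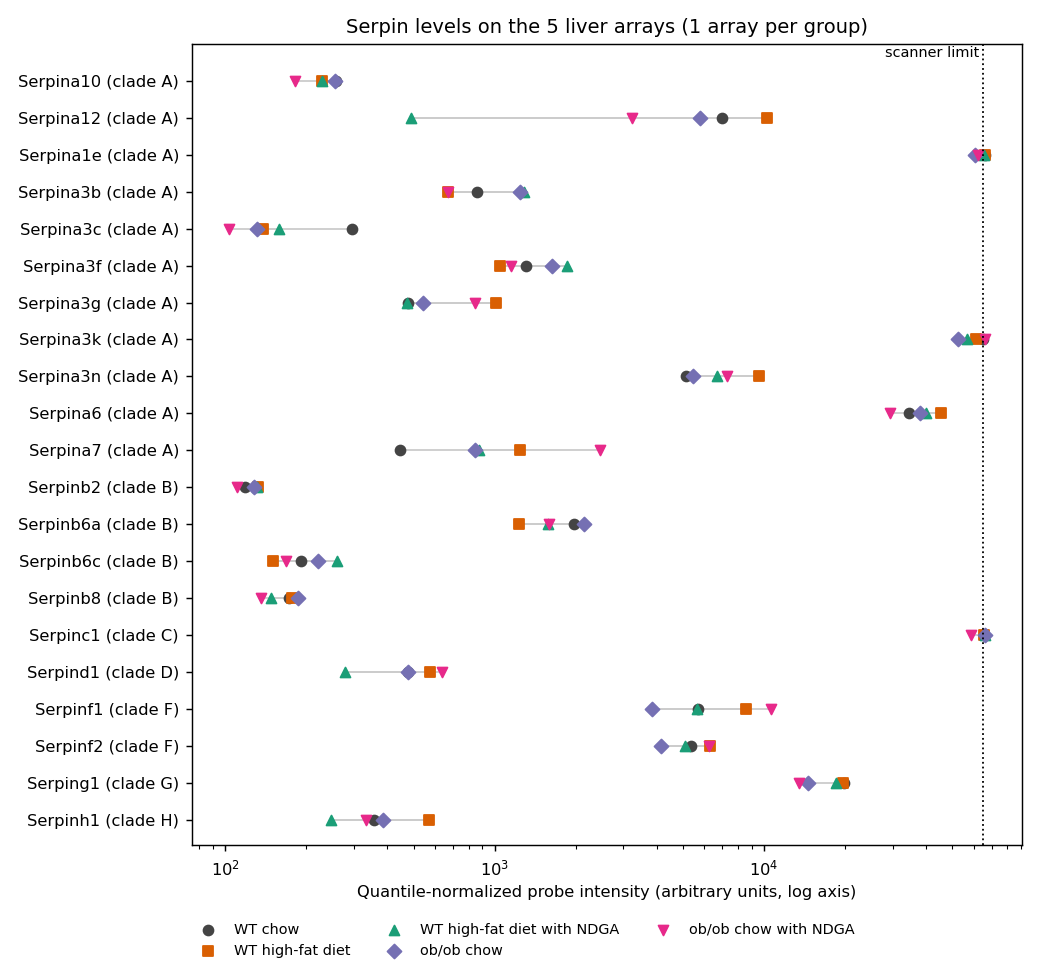
Quantile-normalized probe intensity (arbitrary units, log axis) of the 21 serpins that passed the filter, 1 row per gene and 1 marker per array; the dotted line is the scanner limit. Serpina12 is spread widest, from 488 on WT high-fat diet with NDGA to 10215 on WT high-fat diet, while Serpinc1, saturated on all 5 arrays as deposited, sits at the limit, with its spread there set by the normalization.

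Serpina12 encodes vaspin, a serpin of adipose tissue, skin and liver that inhibits a tissue kallikrein. It read 6977 on WT chow, 10215 on WT high-fat diet, 488 on WT high-fat diet with NDGA, 5762 on ob/ob chow and 3240 on that chow plus NDGA. The WT array with NDGA stood alone at the bottom, 6.11-fold below the next lowest array. As deposited it also read lowest there, 481 against 9952 on high-fat diet alone. The next lowest array was then ob/ob chow (4381), not ob/ob chow with NDGA (4960), and the gap was 3.06 log2 units. Of the 8319 passing genes, Serpina12 was the only 1 that was at least 4-fold lower on this array than on each of the others, a threshold chosen after its values were seen. Across all 5 arrays, 3 genes met that description, also without normalization.

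The NDGA difference of Serpina12 in WT mice was -4.25 log2 units, or 19.1-fold, and it ranked 2 from the lowest of all passing genes. The diet gave 0.55 and the ob/ob genotype -0.27, and NDGA in ob/ob gave -0.82. The last value was 0.18 without normalization, so its direction rests on the scaling. The second Serpina12 probe read 2.69 to 6.99 on all 5 arrays, below the filter everywhere, and gives no second reading of the gene; averaging both probes brings the WT difference to -2.15. In whole liver RNA, fewer cells of a type and less RNA per cell cannot be told apart.

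Markers of other tissues moved on the same array as Serpina12. The 12 skeletal muscle markers summed to 11090 on WT high-fat diet with NDGA against 1921 to 3646 on the other arrays, and 7 of 8 passing markers, Ckm (4.66) first among them, were at least 2-fold higher with NDGA. The 5 adipocyte markers on the array summed to 3187 there against 841 on high-fat diet alone. Nearly all of that sum was Cfd, the serine protease adipsin (3095 against 770), whereas Adipoq (62.2), Plin1 (16.1), Lep (11.4) and Fabp4 (2.22) lay below the filter. Their part in the Serpina12 difference was not tested.

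The promoter of Serpina12 is shown beside those of the 3 other serpins that were 2-fold apart most often or most widely (Serpina7, Serpina3g and Serpinf1), as the sequence context of the genes that moved. Each run holds the 250 bases before the RefSeq start, 5′ to 3′ on the gene's strand. Capitals mark matches on either strand to TTCNNNGAA, the motif of STAT factors, or to GTTAAT, an arm of the palindromic site of the hepatocyte factor HNF1.
Serpina12 promoter, GRCm38.p6 chr12:104044444-104044693, minus strand: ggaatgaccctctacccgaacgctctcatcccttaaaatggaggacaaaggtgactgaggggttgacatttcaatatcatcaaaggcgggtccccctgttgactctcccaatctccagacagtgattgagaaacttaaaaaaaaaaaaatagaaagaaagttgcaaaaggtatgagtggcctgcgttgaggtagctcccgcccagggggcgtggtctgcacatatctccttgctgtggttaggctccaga
Serpina7 promoter, GRCm38.p6 chrX:139085237-139085486, minus strand: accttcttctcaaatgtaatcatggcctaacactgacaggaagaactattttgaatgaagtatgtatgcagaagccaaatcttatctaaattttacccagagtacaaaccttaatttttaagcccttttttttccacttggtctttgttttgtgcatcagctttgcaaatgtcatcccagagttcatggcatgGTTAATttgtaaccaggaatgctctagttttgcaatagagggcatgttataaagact
Serpina3g promoter, GRCm38.p6 chr12:104235897-104236146, plus strand: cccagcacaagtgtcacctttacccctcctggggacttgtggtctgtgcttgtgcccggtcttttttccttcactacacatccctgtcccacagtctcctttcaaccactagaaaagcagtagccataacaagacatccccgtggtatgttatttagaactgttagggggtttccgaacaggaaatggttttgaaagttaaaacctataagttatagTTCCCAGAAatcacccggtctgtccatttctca
Serpinf1 promoter, GRCm38.p6 chr11:75422624-75422873, minus strand: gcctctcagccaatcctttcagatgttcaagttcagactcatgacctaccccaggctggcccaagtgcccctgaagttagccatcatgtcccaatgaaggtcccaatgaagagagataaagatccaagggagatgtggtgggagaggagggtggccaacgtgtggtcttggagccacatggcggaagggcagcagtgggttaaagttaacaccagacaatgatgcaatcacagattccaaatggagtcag
The Serpina7 window held a GTTAAT match 57 to 52 bases before the start, and the Serpina3g window held TTCCCAGAA 33 to 25 bases before it. These letters are not in the windows of Serpina12 and Serpinf1. RefSeq gives 2 starts for Serpina7, of which the first listed is shown. Windows of this length matched 38 of the 45 serpins. The STAT motif was in 5 of these 38 (3 of 17 passing, 2 of 21 dim), against 7.02% of all 32851 windows. The HNF1 motif was in 6 of 38 (4 of 17 passing, 2 of 21 dim), against 6.43%. A match describes the letters only and shows no binding.

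Serpina7 and Serpina6 are the hormone carriers of clade A. Serpina7 encodes thyroxine-binding globulin. It read 446 on WT chow, 1243 on WT high-fat diet, 875 on WT high-fat diet with NDGA, 843 on ob/ob chow and 2450 on that chow plus NDGA. WT chow was the lowest array and ob/ob with NDGA the highest by a clear margin. The diet gave a difference of 1.38 (2.60-fold) and NDGA on that diet -0.48. The ob/ob genotype gave 0.85, and NDGA in ob/ob mice 1.49 (2.80-fold).

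The second Serpina7 probe kept the same order at both ends. It read 121 on WT chow, 187 on WT high-fat diet, 131 with NDGA added, then 176 for ob/ob mice and 264 for those given NDGA. Its differences were 0.47, -0.39, 0.40 and 0.47 in the same order, all smaller than those of the bright probe. As the mean of both probes, the high-fat difference was 0.93 and the NDGA difference in ob/ob 0.98, both just under 2-fold.

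Serpina6 encodes corticosteroid-binding globulin, the plasma carrier of glucocorticoids. It read 34557 on WT chow, 45180 on high-fat diet, 40054 with NDGA added, then 37862 for ob/ob mice and 29348 for those given NDGA. Its differences were between -0.37 and 0.39, and the lower value, for NDGA in ob/ob, was 0.58 without normalization. In the list of hormone-related genes fixed for these carriers, 9 of 11 passed the filter. Dio1, the deiodinase that activates thyroid hormone in liver, read 1760 on WT chow, 6830 on high-fat diet and 2616 with NDGA (differences of 1.93 and -1.37). Hsd11b1, which regenerates active glucocorticoid, was at -1.17 for NDGA in WT. Agt, the angiotensin precursor, has the serpin fold but a symbol outside the rule; its differences were 0.43, -0.49, -0.01 and 0.49.

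The Serpina3 genes are mouse relatives of antichymotrypsin, an acute phase inhibitor of cathepsin G and chymase. They are near copies of each other, and whether the probes separate them was not tested. Serpina3n, which also inhibits granzyme B, read 5110 on WT chow, 9589 on high-fat diet, 6680 with NDGA, then 5425 for ob/ob mice and 7278 for those given NDGA. Its high-fat difference of 0.90 lay just under 2-fold, and NDGA gave -0.52 in WT and 0.42 in ob/ob.

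Serpina3g encodes a serpin that acts inside leukocytes against cysteine cathepsins. It read 476 on WT chow, 1013 on high-fat diet, 475 with NDGA, 542 on ob/ob chow and 842 on that chow plus NDGA. After normalization the high-fat array was the highest, and the WT array with NDGA was level with chow. As deposited, Serpina3g read highest on ob/ob chow with NDGA (1260, against 940 on high-fat diet). Its differences were 1.02 for high-fat diet and -1.02 for NDGA in WT, both close to the threshold, and without normalization the latter was -0.94. These comparisons share the high-fat array, so their opposite signs are not independent of each other. Macrophage markers went with them: their 12 members summed to 7508 on WT chow, 11736 on high-fat diet and 6274 with NDGA, and 5 of 12 were at least 2-fold higher with the diet and 5 of 12 lower with NDGA. Their part in the Serpina3g values was not tested. On ob/ob chow the macrophage sum was 15065, while Serpina3g there was 0.17 log2 units above WT chow. With NDGA added to that chow the macrophage sum was lower, at 13670.5, while Serpina3g was higher, at a difference of 0.59.

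Serpina3b, Serpina3f and Serpina3c ran the other way under the diet. Serpina3b read 857 on WT chow, 670 on high-fat diet, 1284 with NDGA, 1240 on ob/ob chow and 671 on that chow plus NDGA. Serpina3f followed the same order, with 1312, 1050, 1852, 1633 and 1153. Both were highest on the WT array with NDGA, at differences of 0.89 and 0.79 from high-fat diet alone. Serpina3c read 296 on WT chow and 104 to 158 on the other 4 arrays, so lean chow liver stood apart. Its differences were -0.88 for high-fat diet and -0.93 for ob/ob against WT, and with an offset of 16 in place of 50 they were -1.02 and -1.08.

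Serpina3k, a kallikrein-binding relative, was saturated on WT chow and in ob/ob mice given NDGA. It was at least 1.23-fold lower on ob/ob chow than on WT chow, a bound set by the scanner limit. Serpina1e, a member of the alpha-1-antitrypsin group that guards against neutrophil elastase, was saturated on 4 arrays and read 55842 as deposited on ob/ob chow, at least 1.08-fold below WT chow. Whether its probe separates it from other members of that group was not tested. Serpina10, the protein Z-dependent inhibitor of coagulation factor X, read 182 to 257, with differences from -0.40 to 0.00.

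On chromosome 12, RefSeq (GRCm38.p6) lists 28 serpin loci in a row, pseudogenes included, of which 14 are on the array and 10 passed the filter. Along this row, signs differed within the Serpina3 group. Serpina3b, Serpina3c and Serpina3f were below 0 with the diet (-0.33, -0.88 and -0.31) and above 0 with NDGA on it (0.89, 0.14 and 0.79). Serpina3g and Serpina3n, further along, had the opposite signs in both (1.02 and 0.90, then -1.02 and -0.52), and Serpina3k between them was below 0 in both, at least 1.06-fold lower with the diet and at -0.12 with NDGA. The diet differences of Serpina3b and Serpina3f lay within the SD per probe of that comparison (0.35). So did the NDGA difference of Serpina3c (SD of 0.33). Whether sign goes with position was not tested. Both comparisons share the high-fat array. Serpina9 and Serpina5, the members on the array on either side of Serpina12, lay below the filter, at 52.3 to 114 and 4.68 to 12.7.

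**Figure D2:**
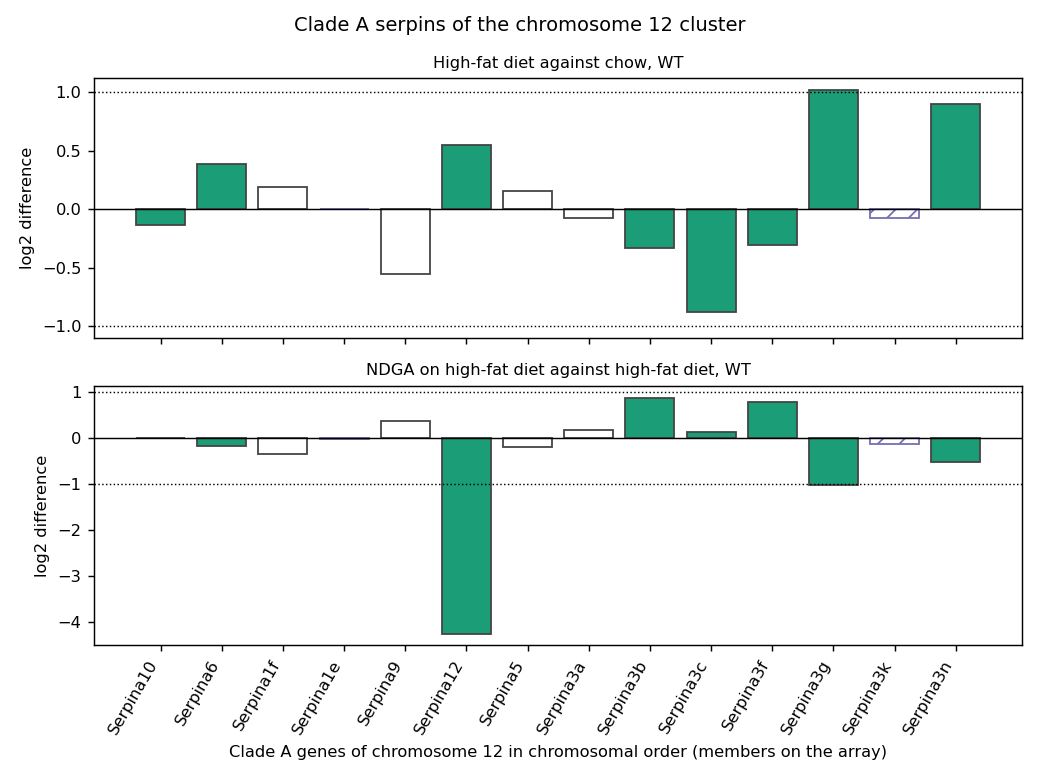
log2 difference (y axis, no unit) of the 14 clade A members of chromosome 12 on the array, in chromosomal order, for high-fat diet against chow (top) and NDGA on high-fat diet against high-fat diet (bottom) in WT mice; filled bars passed the filter and were never saturated, open bars were below the filter, hatched bars were saturated on 1 or more arrays, and dotted lines mark 2-fold. No other bar is of like size to that of Serpina12, at -4.25. Its neighbours on the array, Serpina9 and Serpina5, lay below the filter, too dim to show a fall of that size.

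Clade B, the intracellular serpins, showed small differences. Serpinb6a, an inhibitor of cathepsin G, read 1969 on WT chow, 1228 on high-fat diet, 1572 with NDGA, 2153 on ob/ob chow and 1585 on that chow plus NDGA. It was lowest on high-fat diet, at a difference of -0.66. Its relative Serpinb6c read 191, 150, 260, 221 and 168 in the same order, also lowest on high-fat diet, and was at 0.63 for NDGA in WT. Whether the probes separate these relatives was not tested. Serpinb8, an inhibitor of furin, read 135 to 186 and Serpinb2, the inhibitor of urokinase also called PAI-2, 111 to 132, both just above the filter. The second Serpinb8 probe read 0.21 to 7.07 and gives no second reading. None of the 4 passing clade B members was 2-fold apart in any comparison, nor was any of the 17 dim ones.

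The plasma inhibitors of coagulation and fibrinolysis lie in clades C, D and F. Serpinc1 encodes antithrombin, the main inhibitor of thrombin, and its probe was saturated on all 5 arrays, so no difference can be given. Serpind1 encodes heparin cofactor II, which inhibits thrombin in the vessel wall. It read 477 on WT chow, 574 on high-fat diet, 279 with NDGA, 479 on ob/ob chow and 639 on that chow plus NDGA. The WT array with NDGA was the lowest, at -0.92 from high-fat diet, and it just reached 2-fold with an offset of 16.

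Serpinf2 encodes alpha-2-antiplasmin, the main inhibitor of plasmin. It read 5358 on WT chow, 6278 on high-fat diet, 5074 with NDGA, 4126 on ob/ob chow and 6229 on that chow plus NDGA. Its second probe read 662, 1075, 418, 409 and 945 in that order. Both probes placed high-fat diet and ob/ob with NDGA highest, but the second gave larger differences, -1.26 against -0.30 for NDGA in WT.

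Serpinf1 encodes pigment epithelium-derived factor, a non-inhibitory serpin that restrains blood vessel growth. It read 5663 on WT chow, 8559 on high-fat diet, 5646 with NDGA, then 3834 for ob/ob mice and 10618 for those given NDGA. The ob/ob arrays were the lowest and the highest of the 5. Its differences were 0.59, -0.60, -0.56 and 1.46, the last of them 2.75-fold. The proteases that these serpins face were on the array too. Of 9 coagulation proteases, the only member 2-fold apart in any comparison was Klkb1, plasma prekallikrein, at 1.12 with NDGA in ob/ob mice. The median of the 9 was 0.29 with the diet, -0.57 with NDGA on it, -0.31 in ob/ob mice and 0.56 when those were given NDGA.

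Serping1 encodes C1 inhibitor, which restrains complement C1 and kallikrein. It read 19878 on WT chow, 19562 on high-fat diet, 18471 with NDGA, 14509 on ob/ob chow and 13457 on that chow plus NDGA. Both ob/ob arrays lay below the 3 WT arrays. The ob/ob difference was -0.45, and it ranged from -0.78 to -0.45 over the 4 scalings tried. Before normalization, however, the ob/ob array with NDGA was the brightest (21727), so the place of that array rests on the scaling. Of the proteases it restrains, Klkb1 was at -0.64, C1ra at -0.54, Masp1 at -0.43 and F12 at -0.15 in the same comparison, and C1s1 was at 0.47.

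Serpinh1 encodes HSP47, the collagen chaperone of the endoplasmic reticulum, which inhibits no protease. It read 357 on WT chow, 571 on high-fat diet, 246 with NDGA, 384 on ob/ob chow and 334 on that chow plus NDGA. High-fat diet was the highest array and high-fat diet with NDGA the lowest, with differences of 0.61 and -1.07, the latter -0.97 without normalization. Of its collagen clients, Col1a2, Col3a1 and Col4a1 differed more than Serpinh1 in both comparisons, while Col4a2 (0.41 and -0.29) and Col5a1 (0.01 and 0.07) differed less. Col3a1 read 216 on WT chow, 1653 on high-fat diet, 369 with NDGA, 666 on ob/ob chow and 1145 on that chow plus NDGA. Of 8 passing clients and folding partners, 3 were at least 2-fold higher with the diet (Col1a2, Col3a1 and Col4a1) and the same 3 lower with NDGA, again with the high-fat array shared. On ob/ob chow Col1a2 (1.55) and Col3a1 (1.43) were higher than in WT, while Serpinh1 was at 0.09. Stellate cell and fibroblast markers summed to 6647 on WT chow, 12692 on high-fat diet, 8818 with NDGA and 10972 on ob/ob chow. On that chow plus NDGA the markers had their highest sum, 13047.5, while Serpinh1 read 334. The part of these markers in the Serpinh1 values was not tested.

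The 24 dim serpins read between -4.34 and 114 on the 5 arrays, 17 of them in clade B, 4 in clade A, 2 in clade I and 1 in clade E. Their differences lay between -0.59 and 0.46, and none was 2-fold apart. Clade E was represented by Serpine2, protease nexin 1, at 12.1 to 26.7. Clade I held Serpini1, neuroserpin (2.64 to 7.04), and Serpini2, a serpin of the exocrine pancreas (26.8 to 58.8). Serpina9 of clade A read 114 on WT chow and 52.3 to 94.4 elsewhere.

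The first comparison sets the WT high-fat array against WT chow, for the effect of the obesogenic diet. Of 19 passing serpins not saturated on both arrays, 2 were at least 2-fold higher (Serpina7 and Serpina3g), against 2.01% of 8302 genes, and 0 were lower, against 1.28%. Serpina3n (0.90), Serpinh1 (0.61), Serpinf1 (0.59) and Serpina12 (0.55) were higher without reaching 2-fold, and Serpina3c (-0.88) and Serpinb6a (-0.66) were lower. The median over the 19 was 0.11, beside -0.01 over all genes. Liver protease inhibitors outside the serpin fold had a median of 0.17 over 12 passing members, with 0 at least 2-fold apart. This list kept Ahsg, Kng1 and Cst3, saturated on 4, 3 and 1 of the arrays, whereas the serpin counts left out probes saturated on both arrays. Mug2, a murinoglobulin, was at 0.91 and Itih3, an inter-alpha-inhibitor heavy chain, at 0.87. Of 15 regulators of liver serpin genes on the array, 13 passed and 1 was 2-fold apart, the hepatocyte factor Onecut1 (1.04). In the fibrinolysis list Plau, urokinase, was at 3.64 on a probe that read 1754 on high-fat diet and 83.6 to 128 elsewhere, and Cpb2, a plasma carboxypeptidase that slows fibrinolysis, was at 1.05. Of the receptors that clear serpin-protease complexes, 3 of 5 passed, and Vldlr was at 1.13.

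The second comparison adds NDGA to the high-fat diet of WT mice. Of 19 serpins, 3 were at least 2-fold lower (Serpina12, Serpinh1 and Serpina3g), against 1.48% of 8304 genes, and 0 were higher, against 0.819%. The median was -0.17, beside -0.04 over all genes. Below 0 under all 4 scalings were 11 of the 18 measured serpins, and 6 were above 0 under all 4. No share over all genes is set beside these counts. The median of all passing genes was itself -0.04 after quantile normalization, -0.09 after median centring, -0.04 after loess and 0.03 as deposited. Beside Serpina3b and Serpina3f, Serpinb6c (0.63) and Serpinb6a (0.34) were the highest. Among inhibitors outside the family, Mug2 was at -1.71 and Itih3 at -0.90, with a list median of -0.16, and Plau was at -3.34. In the complement list C1s1, a target of Serping1, was at -1.03, and 1 of 6 passing members was 2-fold lower. Ctsb, a cysteine cathepsin of the kind that Serpina3g inhibits, read 1455 on chow, 2857 on high-fat diet and 1460 with NDGA. Among the WT arrays it was thus highest on high-fat diet, like that serpin. Over all arrays, however, Ctsb was highest on ob/ob chow with NDGA (4275), where Serpina3g was not after normalization. That place of Serpina3g rests on the scaling, since as deposited it read highest there (1260, against 940 on WT high-fat diet). Ctsh, the other passing cysteine cathepsin of the list, was at -0.06 with the diet and -0.34 with NDGA.

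The third comparison sets the genotypes side by side on chow. None of 20 serpins was 2-fold apart, against 1.02% of 8310 genes higher and 1.7% lower. The nearest were Serpina3c (-0.93) and Serpina7 (0.85), followed by Serpinf1 (-0.56), Serpina3b (0.51) and Serping1 (-0.45). The median was 0.08, beside 0.03 over all genes. Above 0 were 12 of the 18 measured serpins, but 4 without normalization or with median centring, so small differences here have no settled direction. Male-biased liver genes were at least 2-fold lower in 6 of 6 passing members (median -3.05), led by the steroid dehydrogenase Hsd3b5 (-5.27) and the transporter Slco1a1 (-3.54). Female-biased genes were at least 2-fold higher in 4 of 6 (median 1.25), led by the cytochromes Cyp2b9 (3.47) and Cyp2b13 (1.54), and Vldlr was at 1.14. No measured serpin here differed by as much as the sex-biased genes named above. Hao2 (0.76) and Cux2 (-0.11) of the female-biased list differed by less than Serpina3c and Serpina7. This comparison shares WT chow with that of the diet. Serpina7 and Serpina3c lay on the same side of 0 in both, at 1.38 and 0.85 and at -0.88 and -0.93, which is the place of the shared array at the end of each range.

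The fourth comparison gives NDGA to ob/ob mice on chow, and shares the ob/ob chow array with the third. Of 20 serpins, 2 were at least 2-fold higher (Serpina7 and Serpinf1), against 6.43% of 8308 genes, and 0 were lower, against 0.469%. The median was -0.16, beside -0.10 over all genes, and these medians move with the scaling: all passing genes had 0.67 as deposited, 0.21 after median centring and 0.08 after loess. As deposited, Serpina7 was at 2.39 and Serpinf1 at 2.50, and 7 serpins were at least 2-fold higher, namely these with Serpinf2 (1.66), Serpina3n (1.49), Serpina3g (1.45), Serpind1 (1.23) and Serping1 (1.02). Serpina7, Serpinf1, Serpinf2, Serpina3n, Serpina3g and Serpind1 were above 0 under all 4 scalings, and 0 of the 18 were below 0 under all 4. Here too, no share over all genes is set beside these counts. Of the partner genes, Itih3 was at 1.37, Cpb2 at 1.25, Ctsb at 1.19 and Cebpb, an acute phase transcription factor, at 1.18. Skeletal muscle markers were at least 2-fold higher in 5 of 8 passing members here as well (median 1.43); their part in the serpin values was not tested.

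**Figure D3:**
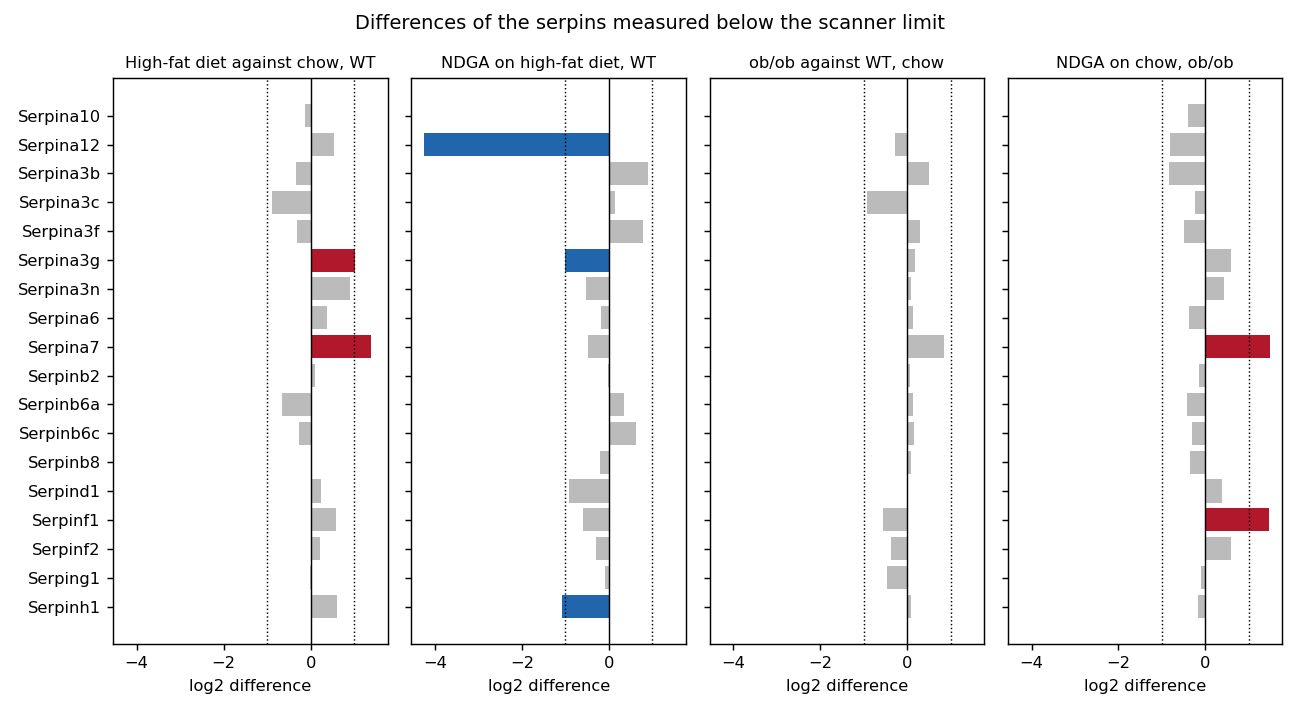
log2 difference (x axis) of the 18 serpins measured below the scanner limit on all arrays, 1 panel per comparison; red bars are at least 2-fold higher, blue bars at least 2-fold lower, and dotted lines mark 2-fold. Serpina12 at -4.25 with NDGA on the high-fat diet exceeds every other bar, and no bar reaches 2-fold for ob/ob against WT.

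**Figure D4:**
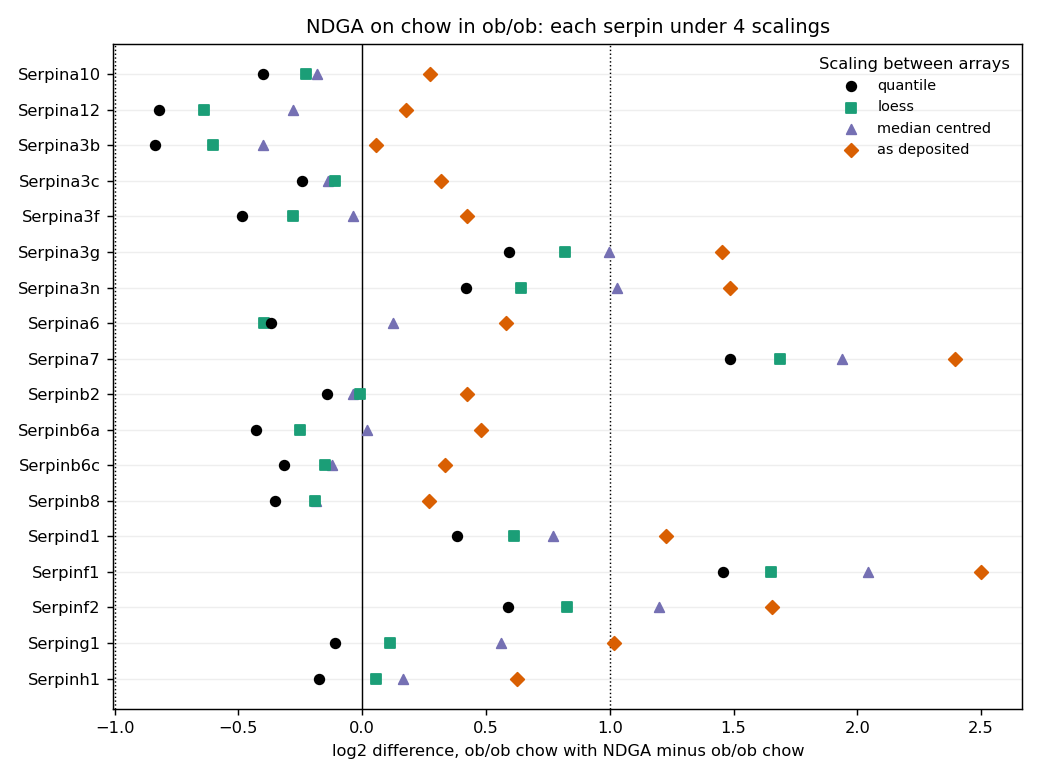
log2 difference (x axis) of the same 18 serpins for NDGA on chow in ob/ob, 1 marker per scaling between arrays; dotted lines mark 2-fold. Serpina7 and Serpinf1 exceed 2-fold under each scaling, whereas all 18 lie above 0 only as deposited.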

How the data were processed

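RNA of 5 liver groups was read on Phalanx Mouse OneArray slides, 1 array each. The authors deposited 1 linear intensity per probe, a unit read from the values themselves: some lie below 0, as after background subtraction, and the brightest crowd above 65000. Per the labels, RNA was labelled through amino-allyl aRNA. What scanner, background method and scaling the authors used is not stated in those labels. The number of arrays limits the precision.

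From these values log2(value + 50) was computed and quantile normalized over the 5 arrays, because their medians differed by 0.46 log2 units, above a limit of 0.1 (Python 3.11.15, numpy 2.4.6, pandas 2.3.3, statsmodels 0.14.6 for loess with a span of 0.3). Printed intensities are normalized values with the offset of 50 removed. Gene names come from the platform table, updated through RefSeq GRCm38.p6; no serpin symbol changed. The count across all genes left out probes saturated on both arrays. The steps were tested on simulated data. The members, lists and rules were chosen with earlier results of these data known. Serpins above the filter are named; partner genes are those at least 2-fold apart, up to 4 per list by size, and C1ra, Masp1, F12, Ctsh, Col4a2, Col5a1, Agt and the marker genes were chosen after their values were seen. Alternatives are other scalings, filters, probe rules and an offset of 16. Protein sequences were not used here.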

Additional observations from a re-analysis of the deposited data

Results flagged for a closer look

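For 5 of 18 measured serpins, NDGA went with opposite differences in WT mice on high-fat diet and in ob/ob mice on chow, each beyond the SD per probe of its comparison; a total of 12 of 18 had opposite signs of any size. Over all 8279 passing genes never saturated, 74.2% had opposite signs and 23.9% were beyond the SD per probe on both sides, so the serpins' counts lie near the background and single out nothing about the family. The difference between the pairs of arrays was not tested, since each holds 1 array per group, and diet differs along with genotype. The gap, as the ob/ob difference minus the WT difference in log2 units, was 2.05 for Serpinf1, 1.97 for Serpina7, 1.61 for Serpina3g, -1.73 for Serpina3b and -1.27 for Serpina3f. Without normalization the ob/ob differences of Serpina3b (0.06) and Serpina3f (0.42) lay above 0, as did their WT differences, so for these genes the opposite sign rests on the scaling.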

How the results depend on the processing

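Most counts of serpins at least 2-fold apart stayed within 1.5 times under the alternatives. For high-fat diet, the mean of all probes left 1 in place of 2. For NDGA in WT, no normalization left 1 (Serpina12) in place of 3. For ob/ob against WT, no normalization, median centring and an offset of 16 each gave 1 (Serpina3c) in place of 0. For NDGA in ob/ob, no normalization gave 7, median centring 4 and the mean of all probes 1, in place of 2. Centring on the median of passing genes, with or without loess, was added after seeing the data and left 2 for NDGA in WT, without Serpina3g. Of 360 single differences recomputed, 325 moved by less than the SD per probe and 35 by more. The 360 include the mean of all probes for serpins with 1 probe, which cannot move. Most of the 35 fell in NDGA on chow in ob/ob, where every measured serpin moved by more than the SD without normalization. Among differences of at least 2-fold, 0 changed sign. The mean of both Serpina12 probes gave -2.15 for NDGA in WT. The filter at the 75th percentile left 13 or 14 serpins to count in place of 19 or 20, without Serpinh1; with no filter there were 43 or 44. Symbols updated before matching gave the same counts. No paired analysis was possible because each group has 1 array. Dim probes and saturated probes limit what can be seen.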
